A study of Rattus norvegicus with 8 samples.

Results

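Fast and slow cells of the C6 line were compared on 4 of the 8 arrays of the study, 2 arrays of C6 fast cells and 2 of C6 slow cells. The arrays were chosen by their titles, and all 8740 probe sets other than the array's own controls were taken, after the arrays had been brought to a common scale. C6 is an established rat glioma cell line, and total RNA was hybridised to Affymetrix rat oligonucleotide arrays of 8799 probe sets, 59 of them controls. The sample descriptions give migration as the subject. The sources used here do not say how fast and slow cells were separated, under which conditions they were grown, or whether they were clones. No treatment or allele is named for either group. The other 4 arrays, 2 of C6SPGFP fast and 2 of C6SPGFP slow cells, carry a label that is not explained. They served to estimate the spread and as the comparison at the end. The replicates are not said to be separate cultures, so a p-value reflects how these arrays scatter and nothing wider, and that scatter may be technical.

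C6 cells carry traits of the astrocyte and the oligodendrocyte lineages, and they are widely used as a model of glioma, a tumour whose cells spread by migrating through brain tissue. A migrating glial cell grips the matrix through integrins and other adhesion receptors, moves its edge by remodelling actin and microtubules, and clears its way with secreted proteases. Lineage transcription factors such as Sox10, which marks oligodendrocyte precursors and Schwann cells, set which glial genes a cell uses.

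As deposited, 7 arrays had a 2% trimmed mean of 99.4 to 105.1, and C6SPGFP fast replicate 1 had one of 499.1. Quantile normalisation of the 8 arrays brought it to 150.2, and all signals below are on that scale. Correlations of array pairs were taken over the 6686 probe sets tested below, which do not count as replicates. The value of r was 0.9693 between the C6 fast arrays, 0.9696 between the C6 slow arrays and 0.923 to 0.9391 between fast and slow. The ratio of 3' to 5' signal of beta-actin, a measure of RNA integrity, was 1.033 and 1.032 on the C6 fast arrays, against 1.006 and 1.009 on the C6 slow arrays. The spiked hybridisation control CreX, relative to the trimmed mean, read 12.2 and 14.1 on the C6 fast arrays, against 18 and 18.3 on the C6 slow arrays. The part of that control's difference in the results was not tested. Vimentin (Vim), the intermediate filament that C6 cells make in abundance, had signals of 2594 and 2723 in C6 fast and of 3082 and 2681 in C6 slow cells. It did not pass the test (log2 change -0.11 ± 0.10, SE). No probe set was named for Gfap, the astrocyte filament, so that defining marker could not be checked.

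C6 fast cells differed from C6 slow cells in a broad set of genes, with more of them lower than higher. Of 6686 probe sets with a mean signal of at least 8, 445 passed limma's test at an adjusted p of 0.05 (6.66%), 180 of them higher (2.69%) and 265 lower (3.96%) in C6 fast cells. At the level of genes, 126 rose and 184 fell. A probe set that passed is said below to be called, and log2 changes are those of the signal plus a pseudocount of 8. The calls were often large, since 132 of the higher and 215 of the lower probe sets changed more than 2-fold, and 14 and 25 more than 8-fold. The median log2 change over all tested probe sets was 0.01.

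The size of the called set depended on single arrays. It was 295 when C6 slow replicate 1 was left out and 280 when C6 fast replicate 2 was. The higher calls numbered 116 without C6 fast replicate 1 and 96 without C6 fast replicate 2, and the lower calls 170 without C6 slow replicate 1. When the 4 C6 arrays were fitted alone, 250 probe sets passed. Of the 445, 196 kept the call in each of the 4 runs that left out 1 C6 array, 64 higher and 132 lower, and they are said below to have held. All 50 leading genes, the 25 largest increases and the 25 largest decreases, held in these runs wherever they were tested. They were chosen among calls whose C6 fast and C6 slow arrays do not overlap, as was the case for 45.2% of all tested probe sets.

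**Figure D1:**
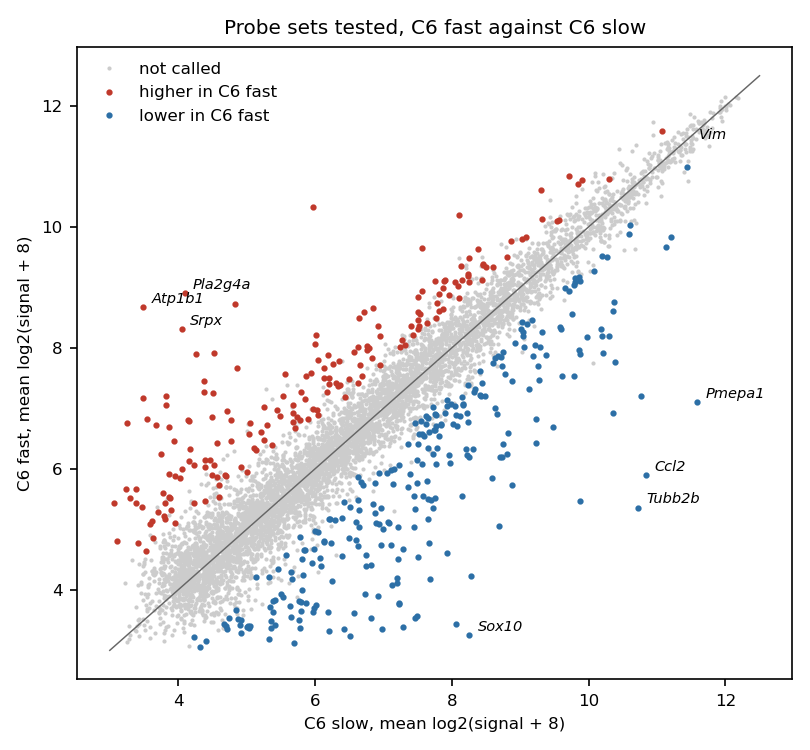
Mean log2(signal + 8) of the 2 C6 fast arrays (vertical axis) against that of the 2 C6 slow arrays (horizontal axis) for 6686 probe sets. Red points are the 180 called higher and blue points the 265 called lower in C6 fast; the line marks equal levels, near which Vim lies.

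The genes that rose most were led by membrane, lipid signalling and matrix genes. Atp1b1, which encodes a beta chain of the pump that exchanges sodium for potassium and also acts in cell to cell adhesion, had signals of 397 and 402.5 in C6 fast cells, against 2.18 and 4.36 in C6 slow cells. The change was 5.18 ± 0.23 (SE) on the log2 scale, and both other probe sets of the gene rose too, the brighter one to 1468 and 1113 in C6 fast against 59.6 and 50.3 in C6 slow cells. The gene was thus at or near the floor of the array in C6 slow cells on its leading probe set and clearly above it in C6 fast cells. In bulk RNA, fewer cells that make a transcript and less of it per cell cannot be told apart. Detection calls are not used here, so very low signals may be background alone, and the pseudocount draws the folds of such genes towards 1.

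A pair of genes that act in sequence rose together. Pla2g4a, the cytosolic phospholipase that frees arachidonic acid from membranes, had signals of 406.9 and 549 in C6 fast cells, against 6.39 and 12.3 in C6 slow cells (log2 change 4.82 ± 0.31, SE). Ptgs2, the inducible cyclooxygenase that turns arachidonic acid into prostaglandin, had 129.8 and 143.1 in C6 fast cells, against 3.24 and 3.11 in C6 slow cells (3.69 ± 0.24). The other probe set of Ptgs2 rose as well, with 67.7 and 89.5 in C6 fast against 12.4 and 19.5 in C6 slow cells. All 4 C6 fast values of these genes lay far above the C6 slow values. Of 23 tested genes of arachidonic acid and prostaglandin metabolism these 2 were the only ones called, against 2.71% of all genes called higher. No member was called lower, and at an unadjusted p under 0.05 the counts were 2 higher and 0 lower (limma). The median log2 change over the 23 was -0.06.

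Pla2g4a and Ptgs2 are also neighbours on rat chromosome 13, with no other protein-coding gene between them in the RefSeq annotation of GRCr8. Their starts lie on opposite strands and point away from each other. Both promoter windows are shown because the genes moved together, beside those of Tubb2b and Pmepa1, among the genes that fell most. Each runs from 250 bases before to 50 bases after the RefSeq start, 5′ to 3′ on the strand of the gene, and capitals mark matches on either strand to the motifs searched. The windows are Pla2g4a, chr13:64572303-64572602, minus strand; Ptgs2, chr13:64713813-64714112, plus strand; Tubb2b, chr17:30952836-30953135, plus strand; and Pmepa1, chr3:182478600-182478899, minus strand.
Pla2g4a: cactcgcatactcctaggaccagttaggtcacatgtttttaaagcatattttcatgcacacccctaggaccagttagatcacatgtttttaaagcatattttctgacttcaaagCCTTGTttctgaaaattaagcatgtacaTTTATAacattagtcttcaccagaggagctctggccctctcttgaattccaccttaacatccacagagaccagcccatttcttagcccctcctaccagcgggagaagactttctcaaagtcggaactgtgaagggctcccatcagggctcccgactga
Ptgs2: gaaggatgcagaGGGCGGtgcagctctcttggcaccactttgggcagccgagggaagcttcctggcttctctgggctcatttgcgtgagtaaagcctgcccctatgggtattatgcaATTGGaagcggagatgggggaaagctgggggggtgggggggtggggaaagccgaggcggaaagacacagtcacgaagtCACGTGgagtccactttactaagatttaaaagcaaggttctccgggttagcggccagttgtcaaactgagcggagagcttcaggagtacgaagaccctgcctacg
Tubb2b: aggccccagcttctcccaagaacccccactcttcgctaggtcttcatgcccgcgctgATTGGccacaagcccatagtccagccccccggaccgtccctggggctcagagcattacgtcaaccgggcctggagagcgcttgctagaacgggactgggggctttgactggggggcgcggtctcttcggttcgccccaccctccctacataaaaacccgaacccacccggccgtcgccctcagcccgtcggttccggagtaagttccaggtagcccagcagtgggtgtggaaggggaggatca
Pmepa1: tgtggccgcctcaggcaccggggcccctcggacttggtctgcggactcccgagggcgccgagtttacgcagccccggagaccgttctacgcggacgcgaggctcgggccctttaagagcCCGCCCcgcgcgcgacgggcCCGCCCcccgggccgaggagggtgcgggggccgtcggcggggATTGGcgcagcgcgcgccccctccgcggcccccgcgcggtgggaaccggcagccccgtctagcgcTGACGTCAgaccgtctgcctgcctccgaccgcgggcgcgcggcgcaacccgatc
The capitals in the Pla2g4a window are a SOX motif (ACAANG) and a TATA motif (TATAAA), both read on the other strand. Those in the Ptgs2 window are a GC box, a CCAAT box on the other strand and an E-box. The GC box was searched as GGGCGG. The E-box searched was the one with the letters CACGTG. Tubb2b holds a CCAAT box and Pmepa1 a CCAAT box, a pair of GC boxes and a cAMP response element (TGACGTCA). The AP-1 motif TGANTCA was searched too. A match is no more than these letters in this window.

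Over all genes with a RefSeq promoter window, the same motifs were counted on both strands. A CCAAT box stood in 49% of the windows of 102 genes that rose, in 35% of 143 that fell and in 38.6% of the 3169 tested genes that had one. An E-box stood in 14.7%, 7.69% and 9.34% of the same sets, a GC box in 64.7%, 67.8% and 59.9%, and a SOX motif in 29.4%, 35% and 32%. A TATA motif stood in 9.8%, 10.5% and 10.2%, a cAMP response element in 1.96%, 2.8% and 2.59%, and an AP-1 motif in 0.98%, 2.8% and 5.84%. The shares are a description of these windows.

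The leading increases also held genes of the cell surface and matrix. Srpx, a sushi repeat protein at the cell surface, had signals of 278.5 and 341.2 in C6 fast cells, against 7.54 and 9.66 in C6 slow cells (log2 change 4.25 ± 0.21). Lama3, a laminin chain of basement membranes, had signals of 335.1 and 519.1 in C6 fast cells, against 20.9 and 20.3 in C6 slow cells. Neither gene overlapped between the groups, as the rule for choosing the leading genes required. Galectin 3 (Lgals3), a lectin that binds sugars of surface glycoproteins, had 291.1 and 185.4 in C6 fast, against 20 and 10.8 in C6 slow cells. Jup, the junction protein plakoglobin, had 144.1 and 145 in C6 fast, against 12.2 and 17.6 in C6 slow cells (log2 change 2.75 ± 0.42). In Lgals3 and Jup the gap between the groups exceeded the widest gap within a group. Spn, a surface sialoglycoprotein of blood cells, had 115.9 and 115.2 in C6 fast, against 16.5 and 20 in C6 slow cells. Lsamp, a neural adhesion protein of the immunoglobulin family, rose by 3.27 ± 0.32, with 74.1 and 147.9 in C6 fast against 4.05 and 3.36 in C6 slow cells.

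Some single genes of the cytoskeleton and of adhesion sites were among the leading increases, and none of them is in the actin class described further on, which had no call higher on the brightest probe sets. Myo1d, an unconventional myosin, had 114.6 and 185.4 in C6 fast, against 12.6 and 13 in C6 slow cells. Cdc42ep3, an effector of the GTPase Cdc42, had 186.9 and 203.9 in C6 fast, against 20.4 and 22 in C6 slow cells. Tns2, a tensin of focal adhesions, had 267.9 and 310.5 in C6 fast, against 46.2 and 69.9 in C6 slow cells. These 3 were held calls with log2 changes of 2.89, 2.80 and 2.19. Another tensin, Tns3, went the other way, with a held log2 change of -2.25. Evl, an actin polymerisation factor of the Ena/VASP family, rose by 2.51, but its brighter probe set was not called (0.35). Fhl2, a LIM domain protein of adhesion sites and nucleus, had the highest C6 fast signals of the 25 leading probe sets, with 814.2 and 786.6 in C6 fast against 165.1 and 198.5 in C6 slow cells.

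Transport and metabolic enzymes followed. Slc2a5, a fructose transporter, had 150.5 and 104 in C6 fast, against 6.26 and 5.94 in C6 slow cells. Its brighter probe set, at a log2 change of 1.79, was not called. Car2, a carbonic anhydrase that acts on acid balance, had 141.4 and 82 in C6 fast, against 18.2 and 11.5 in C6 slow cells, and its other probe set gave 2.22. Pde2a, a phosphodiesterase that breaks down cyclic nucleotides, had 94.5 and 100.5 in C6 fast, against 5.64 and 4.05 in C6 slow cells. The mitochondrial serine carrier Sfxn1 rose by 2.06, the tumour protein Tpd52 by 2.04, and the glutathione transferase Gstk1 by 2.49, with 1.04 and no call on the brighter probe set of Gstk1. The leading probe set of Sfxn1 was dim, and its brighter one was called at 1.35 but did not hold. Efna1, an ephrin ligand, had 94.9 and 114.5 in C6 fast, against 6.08 and 14.4 in C6 slow cells, and rose on its brighter probe set too, by 1.53.

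The genes that fell most were led by a tubulin, glial regulators and secreted signals. Tubb2b, a beta-tubulin of the developing nervous system, had signals of 32 and 34.1 in C6 fast cells, against 1630 and 1743 in C6 slow cells. The log2 change of -5.37 ± 0.12 (SE) was the largest in either direction. Pmepa1, an inhibitor of TGF-beta signalling, had 121.2 and 138.7 in C6 fast, against 3247 and 2886 in C6 slow cells. Ccl2, a chemokine that draws monocytes, had 45.7 and 58.7 in C6 fast, against 1893 and 1757 in C6 slow cells, and its other probe set fell by 3.57. These 3 were among the bright genes of C6 slow cells and stayed measurable in C6 fast cells.

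Other leading decreases reached the floor of the array in C6 fast cells. Sox10 had signals of 2.23 and 0.9 in C6 fast cells, against 240.3 and 367.6 in C6 slow cells. Aatk, a kinase first described in apoptosis of myeloid cells, had 2.98 and 2.65 in C6 fast, against 263.9 and 253.8 in C6 slow cells. Calcb, a calcitonin gene related peptide, had 4.34 and 3.35 in C6 fast, against 169.2 and 174.6 in C6 slow cells. Each of these 3 was at or below the pseudocount of 8 on both C6 fast arrays. Ptprz1, a receptor phosphatase of glial progenitors, had 1.69 and 1.23 in C6 fast, against 69.2 and 100.5 in C6 slow cells. Ndrg2, an astrocyte protein, had 1.9 and 2.48 in C6 fast, against 82.6 and 74 in C6 slow cells.

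The leading decreases also held surface receptors and genes of neuronal guidance. Cd81, a tetraspanin that organises surface receptors, had 2.23 and 2.65 in C6 fast, against 185.2 and 117.3 in C6 slow cells, and its other probe set fell by 3.05. Itga1, the alpha 1 integrin that binds collagen and laminin, had 41.3 and 49.3 in C6 fast, against 540.2 and 398 in C6 slow cells. Reelin (Reln), a secreted guide of migrating neurons, had 19.8 and 3.7 in C6 fast, against 204.1 and 189.2 in C6 slow cells. Crmp1, which relays semaphorin signals to microtubules, fell by 3.32, and Prickle2, a planar polarity protein, by 3.29. The membrane-bending protein Bin1 fell by 3.63 on its leading probe set and by 1.29 on the other.

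Receptors, ligands and enzymes closed the list of leading decreases. Gfra1, the receptor for GDNF, had 11.7 and 19.5 in C6 fast, against 181.1 and 165.2 in C6 slow cells. Bmp7, a bone morphogenetic protein, had 4.53 and 4 in C6 fast, against 76.2 and 100 in C6 slow cells. F3, tissue factor, which starts clotting, had 6.85 and 4.65 in C6 fast, against 173.7 and 115.5 in C6 slow cells. Cyp1b1, a cytochrome that oxidises hormones and pollutants, fell by 3.93 ± 0.39 and was called lower on all 4 of its probe sets, though the C6 slow values of the leading one, 241.4 and 117.1, differed among themselves. The natriuretic peptide Nppb (-3.02), the estrogen receptor Gper1 (-3.08), the kinesin Kifc3 (-3.0), the synaptotagmin Syt17 (-2.88), the ubiquitin ligase Rnf130 (-3.43) and the homeobox gene Rhox5 (-4.41) also fell. Gas6, a ligand of receptor kinases, fell by 2.81 on 1 probe set, while its brighter probe set gave 0.04 and was not called, so its direction depends on the probe set.

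**Figure D2:**
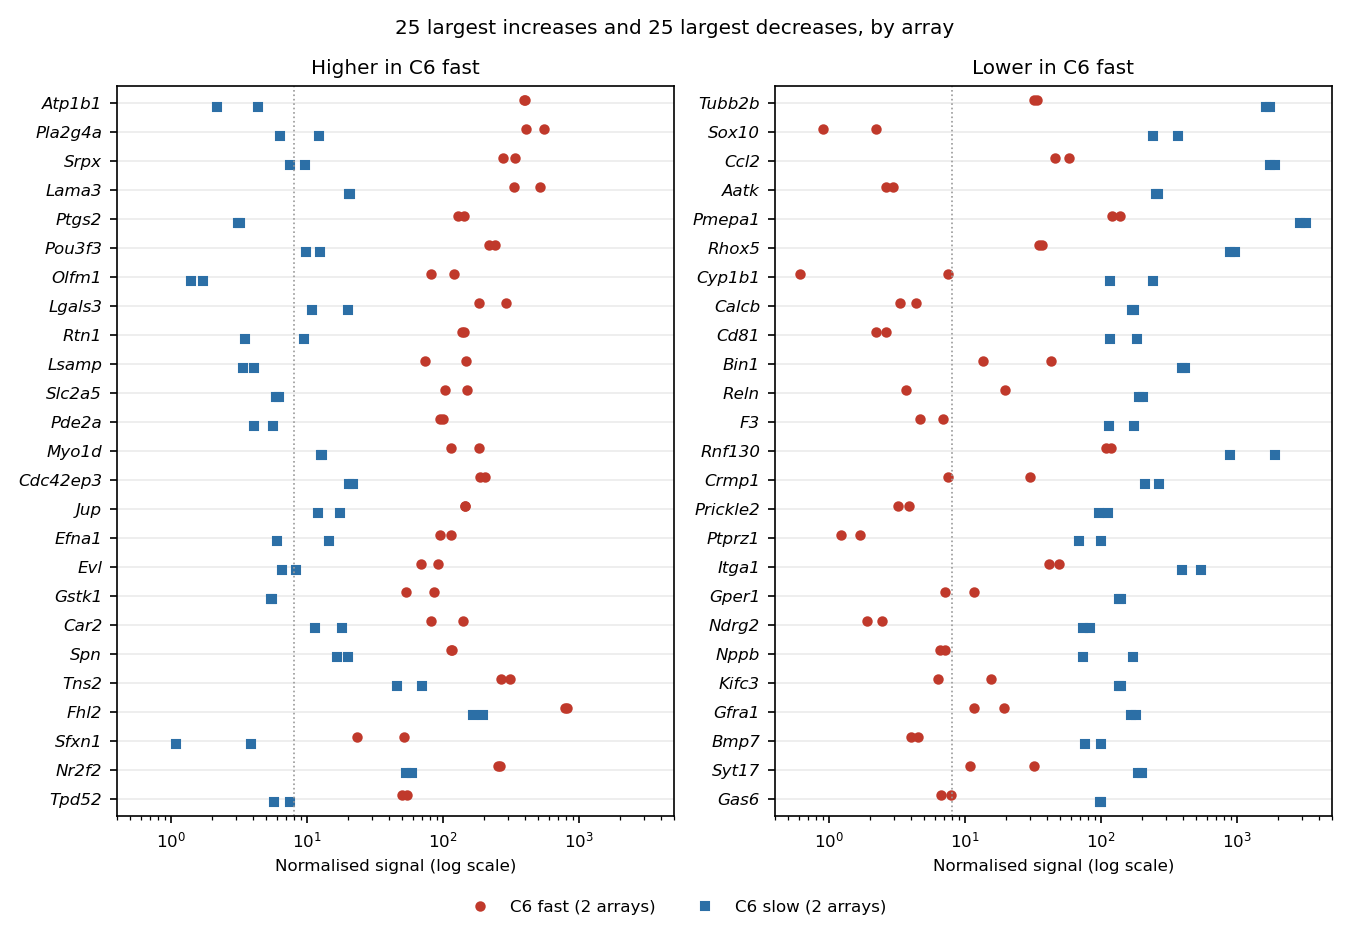
Normalised signal (log scale) of the 25 largest increases (left) and 25 largest decreases (right) on each of the 2 C6 fast (red circles) and 2 C6 slow (blue squares) arrays; the dotted line is the pseudocount of 8. In every gene shown the fast and slow arrays do not overlap, as the rule for choosing them required.

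Some genes were close to all-or-none between the groups. With a signal over 100 on both arrays of a group and under 25 on both of the other, 13 genes had a probe set that was on in C6 fast and off in C6 slow cells, and 11 had one that was off in C6 fast and on in C6 slow cells. Those on in C6 fast cells were Atp1b1, Pla2g4a, Srpx, Lama3, Ptgs2, Pou3f3, Lgals3, Rtn1, Slc2a5, Myo1d, Cdc42ep3, Jup and Spn. Those off in C6 fast cells were Sox10, Aatk, Cyp1b1, Calcb, Cd81, Reln, F3, Gper1, Kifc3, Gfra1 and the zinc finger gene Plagl1. The rule was met on at least 1 probe set of each gene. On another probe set, Atp1b1 read 59.6 and 50.3 and Slc2a5 29.4 and 37.9 in C6 slow cells, above the lower threshold. The thresholds of 100 and 25 were chosen with the values known.

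Many glial lineage genes fell. In the classes below each gene counts with its brightest probe set, and 105 of 3879 genes (2.71%) were called higher and 168 (4.33%) lower. Class members were chosen with earlier results of these data known, so class shares above these are a description and no test. Of 17 tested oligodendroglial and Schwann genes, 5 fell and 0 rose (median log2 change -0.34, against 0.01 over all genes). At an unadjusted p under 0.05, 7 were lower and 0 higher (limma). Cnp, a myelin enzyme, had 97.3 and 81.1 in C6 fast, against 385.9 and 515.5 in C6 slow cells, and Ngfr, a neurotrophin receptor of glial precursors, had 113.6 and 109.7 in C6 fast, against 381.1 and 415 in C6 slow cells. The other probe set of Ngfr was at -0.15 and not called. With Sox10 these 2 held. Egr2, a regulator of Schwann cell myelination, fell by 1.70 but not without C6 fast replicate 1 (limma adjusted p = 0.0568) or 2 (0.0561), and the surface protein Mpzl1 (-0.69) lost its call without any of the 4 C6 arrays. The class count was 3 without either C6 fast array.

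Most myelin proteins on the array were not called. Pmp22, a myelin protein that many cells also make, had 1176 and 972.7 in C6 fast, against 910.4 and 1036 in C6 slow cells. Mag had 79.7 and 57.2 in C6 fast, against 110.6 and 104.3 in C6 slow cells and was not called (log2 change -0.61). Mbp, Mog, Mobp, Mal and Ugt8 had signals from 4.05 to 43.6 on the 4 arrays, with log2 changes from -0.46 to 0.67, and none was called. Summed over the 10 oligodendroglial and Schwann markers on the array, the signal was 1490 and 1282 in C6 fast, against 1827 and 2306 in C6 slow cells.

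Of 26 tested astroglial and glial progenitor genes, 7 fell and 1 rose (median log2 change -0.25). Fabp5, a fatty acid carrier of glia, had 84.6 and 108.3 in C6 fast, against 665.5 and 750.6 in C6 slow cells. Nestin (Nes), the intermediate filament of neural progenitors, had 190 and 280.2 in C6 fast, against 931.3 and 937.3 in C6 slow cells, and its dim second probe set fell as well. S100b, a calcium-binding glial protein, had 56.9 and 75.1 in C6 fast, against 421.2 and 395.5 in C6 slow cells, while its dim other probe set was not called (-0.19). These 3 held, as did Ptprz1 and Ndrg2. Glul, the glutamine synthetase of astrocytes, was called lower on 2 of 4 probe sets, by 1.39 on a dim one that held and by 0.85 on the brightest, whose limma adjusted p was 0.0928 and 0.0986 on omitting the first or the second C6 slow array and 0.126 on omitting C6 fast replicate 1. Cst3, a protease inhibitor, fell by 0.80, with a limma adjusted p of 0.117 on omitting C6 slow replicate 1 and of 0.0808 and 0.106 on omitting the first or the second C6 fast array. Id3, an inhibitor of differentiation, was the gene that rose, to 1821 and 1520 in C6 fast, against 960.4 and 862.4 in C6 slow cells.

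Other progenitor markers were not called. Pdgfra, the growth factor receptor of oligodendrocyte precursors, had 326.3 and 386.6 in C6 fast, against 377.4 and 542 in C6 slow cells, and the proteoglycan Cspg4 had 204.5 and 162 in C6 fast, against 201.6 and 216 in C6 slow cells. The hyaluronan receptor Cd44 had 459 and 454.7 in C6 fast, against 615.7 and 586.8 in C6 slow cells (log2 change -0.39, limma adjusted p = 0.129). The astrocyte glutamate transporters Slc1a3 and Slc1a2 and the gap junction protein Gja1 were not called either, and Aqp4 and Fabp7 lay under the filter.

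**Figure D3:**
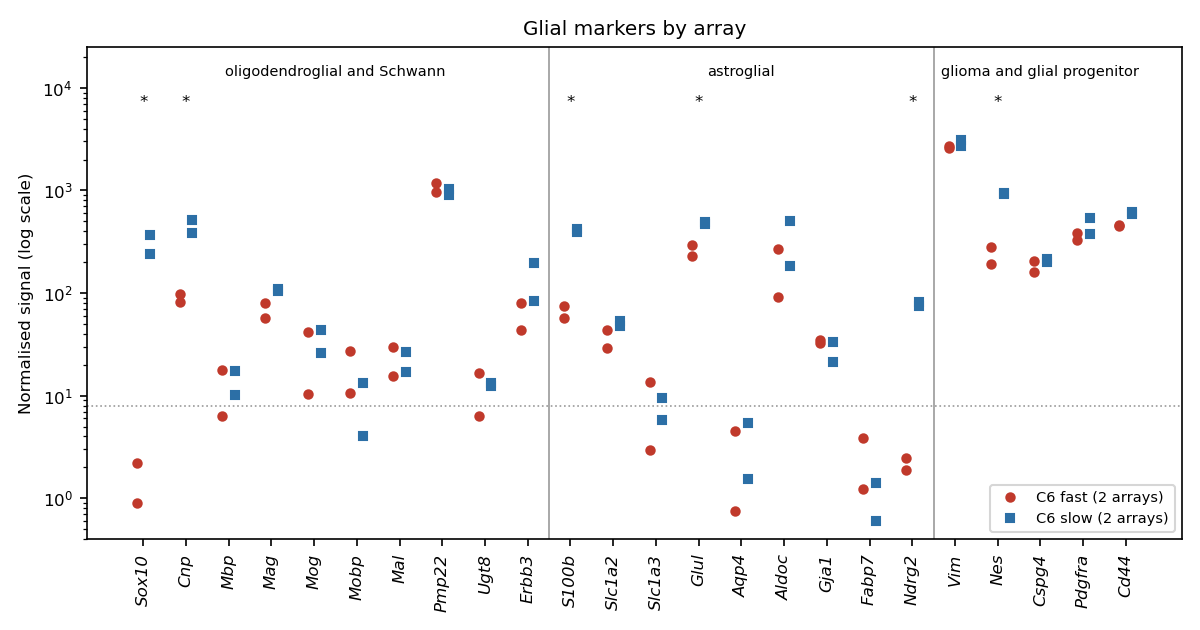
Normalised signal (log scale) of oligodendroglial and Schwann, astroglial, and glioma and glial progenitor markers on the 2 C6 fast (red circles) and 2 C6 slow (blue squares) arrays, 1 probe set per gene. Asterisks mark the genes called: Sox10, Cnp, S100b, Glul, Ndrg2 and Nes lie lower in C6 fast, while Vim, Pdgfra and Cspg4 lie close together.

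Neuronal genes moved in both directions, with 4 of 49 higher and 3 lower. Olfm1, an olfactomedin of neurons, had 82.3 and 120.8 in C6 fast, against 1.4 and 1.73 in C6 slow cells, but its other probe set was not called (0.40). Rtn1, a reticulon of the endoplasmic reticulum, had 137 and 142.8 in C6 fast, against 3.53 and 9.5 in C6 slow cells. Basp1, a growth cone protein, had 467.8 and 430.6 in C6 fast, against 171.1 and 178.1 in C6 slow cells. Among the fallen genes, Reln and Crmp1 held, and the ubiquitin hydrolase Uchl1 (-0.67 on its brightest probe set) lost its call in the run that omitted C6 slow replicate 1 (limma adjusted p = 0.0669) and in that omitting C6 fast replicate 1 (0.0736). The 7 neuronal markers on the array, Map2 and Snap25 among them, were not called and summed to 259.9 and 277.3 in C6 fast, against 315.4 and 280.5 in C6 slow cells. At an unadjusted p under 0.05, 7 of the 49 genes were higher and 7 lower.

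On the brightest probe sets, the calls in the 2 cytoskeletal lists were lower, while Coro1b and Ank3 were called higher on other probe sets. Myo1d, Cdc42ep3, Tns2, Evl and Fhl2, which rose, are not in these lists. Of 51 tested genes of actin, linkers and contractility, 6 fell and 0 rose, while at an unadjusted p under 0.05 the numbers were 9 and 4 (limma). Ezrin (Ezr), which ties actin to the membrane, had 134.2 and 82.1 in C6 fast, against 668.5 and 522.4 in C6 slow cells. Capg, which caps actin filaments, had 300.4 and 321.5 in C6 fast, against 1196 and 1122 in C6 slow cells. The protein kinase C substrate Marcks also held on its brightest probe set (-1.27), while its call at -1.32 on another did not. Its further probe sets, at -1.86, -0.73 and -0.09, were not called. Limk1, a kinase that blocks actin severing, held at -1.74 on one probe set, while its brighter one was at -0.23 and not called. Calponin 3 (Cnn3, -0.76) did not hold, with a limma adjusted p of 0.0628 on omitting C6 slow replicate 1 and of 0.0749 on omitting C6 fast replicate 2. Adducin 3 (Add3), a protein of the membrane skeleton, fell on 2 of its 3 probe sets, and both held. Without C6 slow replicate 2 the class had 2 higher calls. Of 22 tubulins and microtubule proteins 2 fell, Tubb2b and the linker Clip2 (-0.75, called in none of the 4 runs without a C6 array), and 0 rose, with 1 higher at an unadjusted p under 0.05.

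Of 44 tested matrix genes 7 fell and 2 rose, and the higher ones were Srpx and Lama3. Agrin (Agrn), a heparan sulfate proteoglycan, had 70.8 and 73.2 in C6 fast, against 234.8 and 349.2 in C6 slow cells. Biglycan (Bgn), a small proteoglycan, had 222.8 and 364.6 in C6 fast, against 981.5 and 1590 in C6 slow cells. Agrn, Bgn and Reln held, while elastin (Eln), at -1.95, did not. The calls of the matricellular protein Ccn1 (-1.49), the elastin crosslinker Loxl1 (-1.02) and the collagen Col1a1 (-0.75) each ended in at least 3 of the 4 runs. Tenascin C (Tnc) was called at -1.50 on the probe set of lowest mean signal, and its brighter ones were at -0.40 and -0.57 without a call. Tnc is thus not among the 7. Omitting either array numbered 1 left 4 lower genes and omitting either array numbered 2 left 5, and without C6 slow replicate 2 the higher genes numbered 4.

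Adhesion receptors and tetraspanins had 4 of 44 genes higher and 4 lower. Besides Cd81 and Itga1, the tetraspanin Cd9 fell, with 188.3 and 233.2 in C6 fast, against 1128 and 1558 in C6 slow cells on one probe set and 225.8 and 241.2 in C6 fast, against 1059 and 1298 in C6 slow cells on the other. The tetraspanin Cd37, found on blood cells, rose by 1.41 with signals of 40.1 and 66.3 in C6 fast, against 16.2 and 13 in C6 slow cells. That call ended without C6 slow replicate 1 (limma adjusted p = 0.0793), C6 slow replicate 2 (0.101) or C6 fast replicate 2 (0.158). Lgals3bp, which binds galectins, was at -0.70, and its call was lost in every run without a C6 array.

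Proteases and inhibitors had 5 of 48 genes lower and 2 higher. Cathepsin L (Ctsl), a lysosomal protease, had 213.6 and 148.5 in C6 fast, against 767.4 and 774.2 in C6 slow cells. The membrane metalloproteinase Mmp16 had 0.91 and 0.46 in C6 fast, against 47.5 and 39.8 in C6 slow cells. Carboxypeptidase E (Cpe), which trims neuropeptides, was the held increase, with 205.7 and 159 in C6 fast against 47.1 and 32.2 in C6 slow cells. Cst3, the convertase Furin (-0.78) and the protease-activated receptor F2rl1 (0.98) did not hold, and the lower count was 3 without C6 slow replicate 1 or either C6 fast array. The higher count was 1 in the run omitting C6 slow replicate 2 and in that omitting C6 fast replicate 2. In the endosomal and lysosomal class 5 of 54 fell and 2 rose, while without C6 fast replicate 2 the counts were 3 and 0, and without either C6 slow array 1 rose. The lysosomal lipase Lipa fell on all 3 of its tested probe sets, with 453.8 and 394.3 in C6 fast against 1378 and 1254 in C6 slow cells on the brightest.

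The activin, BMP and TGF-beta genes had 5 of 34 lower and 1, Id3, higher. Follistatin (Fst), which binds and blocks activin, had 350.8 and 413 in C6 fast, against 1297 and 1303 in C6 slow cells, and fell on both probe sets. Pmepa1, Bmp7 and Fst held. Tgfb3 (-0.96) lost its call on omission of C6 slow replicate 1 (limma adjusted p = 0.0938) or of C6 fast replicate 1 (0.0849). Tsc22d1 (-0.77) lost it in 3 runs, and the lower count was 3 when C6 slow replicate 1 was omitted.

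Growth factors and receptor kinases had 5 of 61 lower and 4 higher. The ligand Pdgfa, a growth factor of glial precursors, fell by 1.24 on its brightest probe set, where the call was lost without C6 fast replicate 2 (limma adjusted p = 0.0503), and by 1.90 on the other, which held. Igfbp5, which binds insulin-like growth factors, had 6.46 and 5.52 in C6 fast, against 47.1 and 47.6 in C6 slow cells. Igf1 itself had 158.1 and 68.2 in C6 fast, against 18.3 and 20.6 in C6 slow cells, but 2 of its other 4 probe sets had changes below 0 and none was called. Bdnf, the brain-derived neurotrophic factor, was called higher on 3 of 6 probe sets, the held one with 71.2 and 53.5 in C6 fast against 9.66 and 10.2 in C6 slow cells. The other 3 gave log2 changes from -0.57 to -0.09 without a call. On omitting C6 slow replicate 1 the class had 2 higher genes, and likewise on omitting C6 fast replicate 2.

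Chemokines, cytokines and receptors had 3 of 45 higher and 3 lower, and of these Ccl2 alone held. The scavenger receptor Ackr3 (-1.76), Il6 (-1.63), Il33 (1.14), Ctf1 (0.97) and Mif (0.52) each lost the call in at least 3 of the 4 runs, with limma adjusted p-values from 0.0506 to 0.162. The higher count was 1 without either C6 slow array and 0 without either C6 fast array, and the lower count was 1 without C6 fast replicate 2.

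Of 150 tested transcription factors 13 rose and 9 fell. Pou3f3, a POU factor of neural progenitors, had 241.5 and 219.6 in C6 fast, against 12.4 and 9.84 in C6 slow cells. Nr2f2, a nuclear receptor of vessels and interneurons, had 254.9 and 261.9 in C6 fast, against 59.2 and 53.6 in C6 slow cells. Maf, a leucine zipper factor, rose on all 3 of its tested probe sets, with 380.3 and 373.4 in C6 fast against 126.4 and 74.3 in C6 slow cells on the brightest. These 3, Id3 and the Myc partner Max (1.94) held. Hif1a (1.42), Nfix (1.25), Nr3c2 (1.23), Zeb1 (1.24), Cebpb (0.95), Bhlhe41 (1.0), Ppard (0.86) and Egr1 (0.79) did not, and 8 higher calls were left on omitting C6 slow replicate 1 and 8 on omitting C6 fast replicate 2. Among those that fell, Sox10, Rhox5, Irf7 (-2.41), Gata6 (-1.46) and Vgll3 (-1.60) held.

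Immediate early genes, which respond fast to growth signals, had 6 of 33 lower and 1 higher. Ier3 held, with 292.4 and 329.7 in C6 fast, against 848.8 and 691.7 in C6 slow cells, while its other probe set was at -0.46 and not called. Nr4a1 had 54.2 and 65.1 in C6 fast, against 164.8 and 268.2 in C6 slow cells on its brightest probe set, with a limma adjusted p of 0.0651 without C6 fast replicate 1. Leaving out C6 slow replicate 1 left 3 lower genes, and leaving out C6 fast replicate 1 left 2. Egr1, at 0.79, was called in none of the 4 runs.

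Signalling through G proteins, cyclic nucleotides and protein kinase C had 7 of 70 genes lower and 3 higher. Pkia, an inhibitor of protein kinase A, had 25.9 and 7.26 in C6 fast, against 138.9 and 142.6 in C6 slow cells. It fell by 2.17 on another probe set, while a further one was at -0.87 and not called. Pkia and Pde2a held. The other lower calls, Gng11, Rgs12, Pde3b, Rgs14, Prkar2b and Prkar1b, lay between -1.49 and -0.85 and each ended in at least 2 runs, so leaving out C6 slow replicate 1 left 1 lower call, C6 slow replicate 2 left 4 and C6 fast replicate 2 left 2. The higher count was 1 without C6 fast replicate 2. Rgs4 was too dim to be tested, at 2.23 and 2.79 in C6 fast, against 1.71 and 3.74 in C6 slow cells, and no probe set was named for Rgs3.

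Neuropeptide genes had 4 of 52 lower and 2 higher. Npr3, the clearance receptor of natriuretic peptides, fell with its ligand Nppb, with 8.91 and 6.96 in C6 fast, against 54.3 and 42.6 in C6 slow cells. Proenkephalin (Penk), the precursor of opioid peptides, had 2055 and 1620 in C6 fast, against 855.1 and 807.5 in C6 slow cells. Penk, Cpe, Calcb, Nppb and Npr3 held, and adrenomedullin (Adm, -1.60) did not, with a limma adjusted p of 0.0998 on omitting C6 slow replicate 1 and of 0.0602 on omitting C6 fast replicate 2.

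Of 73 ion pumps and channels 2 rose and 2 fell. Itpr1, a calcium release channel, had 52 and 47.6 in C6 fast, against 9.08 and 7.43 in C6 slow cells, on a probe set other than its brightest. Its 2 further probe sets were at 0.58 and 0.62 and not called, so Itpr1 is not among the 2 that rose. The potassium channel subunit Kcnab1 had 8.31 and 11.4 in C6 fast, against 76.3 and 60.5 in C6 slow cells. Kcnab1, Itpr1 and Atp1b1 held, while the calcium channel subunits Cacnb2 (-1.33 on its brightest probe set) and Cacnb3 (1.09) did not. Solute carriers had 2 of 73 higher and 1 lower on their brightest probe sets, Slc20a2 (1.39), Slc5a3 (1.44) and Slc16a1 (-0.66), and none of those held.

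Detoxification and antioxidant genes had 4 of 58 higher and 4 lower. Aldh2, an aldehyde dehydrogenase, had 42.1 and 35.8 in C6 fast, against 174.1 and 192.2 in C6 slow cells. Gstm2, a glutathione transferase, had 185.9 and 250.8 in C6 fast, against 50.3 and 66.2 in C6 slow cells on its brightest probe set and 172.4 and 197.9 in C6 fast, against 46.2 and 61.6 in C6 slow cells on the one that held. The isocitrate dehydrogenase Idh2 had 1087 and 1134 in C6 fast, against 622.6 and 644.6 in C6 slow cells and held on that probe set. Without C6 fast replicate 2 the higher count of the class was 1.

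For genes of the basic cell machinery, the counts stand beside 7.04% of all genes called in either direction. Of 38 ribosomal protein genes 0 were called, and 1 had an unadjusted p under 0.05 (limma). Rpl3 had 4280 and 3944 in C6 fast, against 4165 and 3606 in C6 slow cells, and Rps29 had 4388 and 3994 in C6 fast, against 4388 and 4045 in C6 slow cells. Of 43 respiratory chain genes 1 fell (Cox5b, -0.72), of 27 proteasome and ubiquitin genes 1 (Uchl1), and of 49 cell cycle genes 1 fell (Ccne1, -0.87) and 1 rose (Cdkn1b, 1.36). None of these calls held. Changes were positive in 35 of the 49 cell cycle genes, with a median of 0.20 against 0.01 over all genes. At an unadjusted p under 0.05, 7 cell cycle genes were higher and 2 lower (limma). Of 27 glycolysis genes 2 rose and 1 fell, and the held one was Pdk1, which turns pyruvate away from mitochondria, with 148 and 131 in C6 fast against 34.3 and 42.8 in C6 slow cells. Without C6 slow replicate 2, 4 glycolysis genes rose, and without any other C6 array 1.

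Sterol and fatty acid synthesis genes had positive changes in 20 of 27, with a median of 0.36 against 0.01 over all genes, but 0 were called higher and 1 lower (Acsl1, -0.94). At an unadjusted p under 0.05, 7 were higher (limma). Without C6 slow replicate 2, 7 were called higher, and without any other C6 array 0. Of 37 heat shock and unfolded protein genes 1 rose and 2 fell, and none of these calls held on the brightest probe set. The small heat shock protein Cryab held on its other one, with 1128 and 720.7 in C6 fast against 2579 and 2130 in C6 slow cells. Of 33 interferon and antigen presentation genes 2 fell and 1 rose, led by Irf7 with 11.9 and 14.6 in C6 fast against 141.7 and 76.7 in C6 slow cells. Of 23 apoptosis and p53 target genes 3 fell, Aatk, Casp6 (-1.64) and Mdm2 (-1.17), and the last 2 were lost without C6 slow replicate 1 (limma adjusted p = 0.0628 and 0.101). Of 15 annexins and S100 genes 1 fell, S100b.

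Markers of other cell types were called at shares of 9.09% (microglial and haematopoietic), 6.67% (fibroblast) and 0% (endothelial and mural). Over all genes, 7.04% were called in either direction. The classes are small, so these shares do not set them apart from the rest. Of 11 tested microglial and haematopoietic genes 1 rose, Cd37, and the 7 fixed markers on the array, with Itgam and Cd74 under 8 on all 4 C6 arrays, summed to 100.4 and 88.4 in C6 fast, against 81.2 and 85.4 in C6 slow cells. Of 13 endothelial and mural genes 0 were called, also at an unadjusted p under 0.05 (limma). Tagln had 234.6 and 117.3 in C6 fast, against 510.6 and 139.3 in C6 slow cells, and Acta2 had 145.4 and 173 in C6 fast, against 166 and 177.2 in C6 slow cells. Of 15 fibroblast genes 1 fell, Col1a1, with 109.2 and 110.3 in C6 fast against 176 and 205.2 in C6 slow cells, and the 6 fixed fibroblast markers summed to 203.5 and 189.6 in C6 fast, against 281.1 and 285.3 in C6 slow cells. The part of those sums in the other results was not tested.

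**Figure D4:**
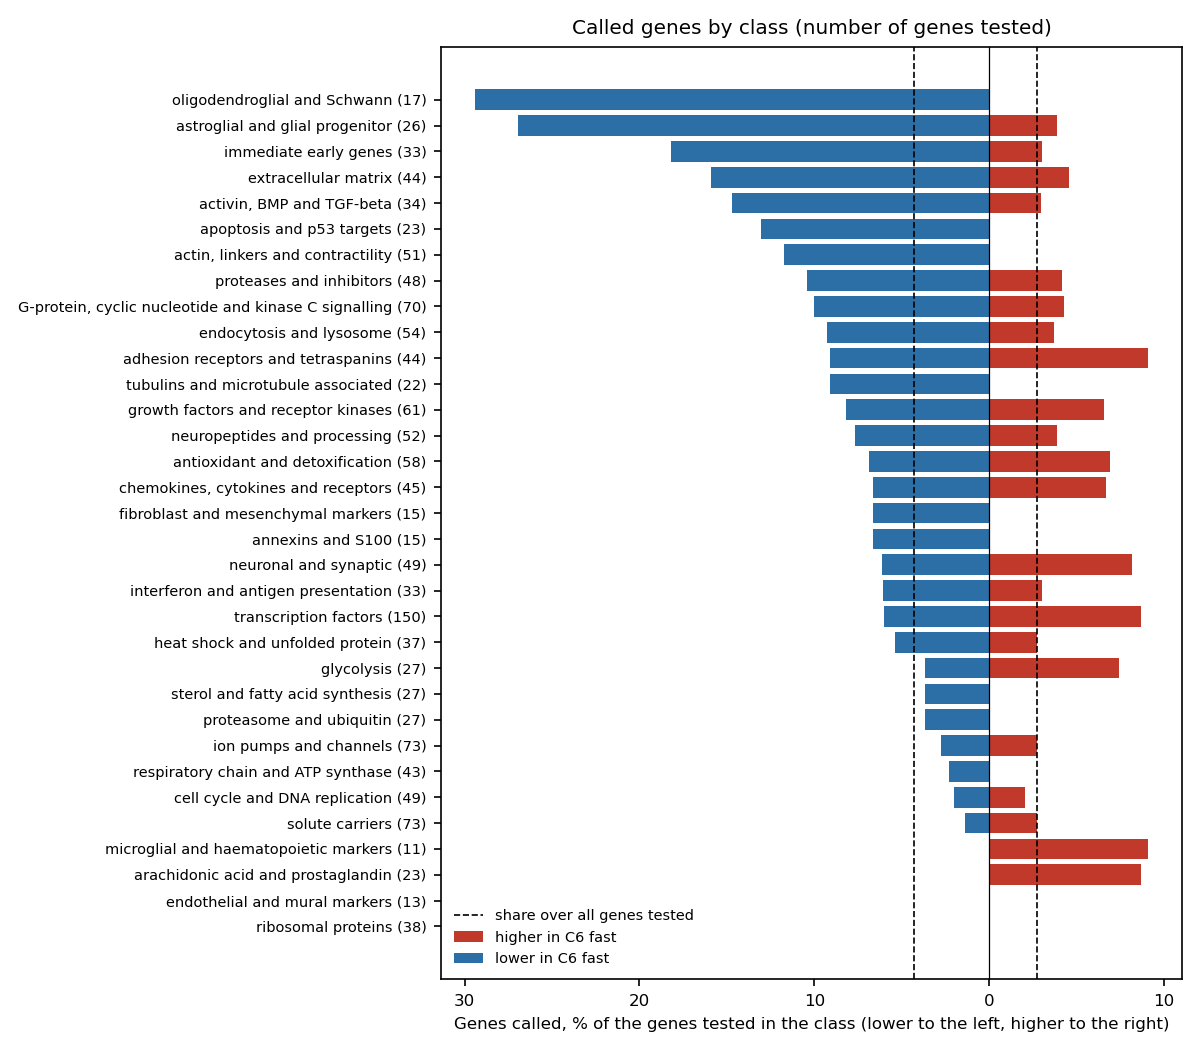
Share of the tested genes of each class called lower (blue, to the left) and higher (red, to the right) in C6 fast cells, 1 probe set per gene, with the number tested in brackets; dashed lines mark 4.33% lower and 2.71% higher over all 3879 genes. The longest bars are those of the oligodendroglial and the astroglial classes to the left. The classes were listed with earlier results of these data known, so the bars are a description and no test.

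Genes with several probe sets gave a check on the calls. For 149 called genes there were 215 further tested probe sets, of which 195 (90.7%) changed in the same direction as the leading one, 75 (34.9%) were called in that direction and 0 were called in the opposite one (limma). An opposite sign occurred in 17 genes, among them Gas6, Rhox5 and Igf1.

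The C6SPGFP arrays give a second point of comparison for the same probe sets. Of the 180 probe sets higher in C6 fast cells, both C6SPGFP means lay nearer C6 slow than C6 fast in 138 (76.7%), and of the 265 lower ones in 206 (77.7%). Both lay nearer C6 fast in 20 and 19. The same shares were not computed over all tested probe sets, so these counts do not set the called ones apart from the rest. Tubb2b, for example, had 32 and 34.1 in C6 fast and 1630 and 1743 in C6 slow cells, beside 2796 and 2535 in C6SPGFP fast and 3350 and 3465 in C6SPGFP slow cells. Fhl2 went another way, with 814.2 and 786.6 in C6 fast and 165.1 and 198.5 in C6 slow cells, beside 3.78 and 4.53 in C6SPGFP fast and 6.51 and 5.73 in C6SPGFP slow cells. Over the tested probe sets, r was 0.8995 to 0.9126 between C6 fast and C6SPGFP arrays and 0.9363 to 0.9554 between C6 slow and C6SPGFP arrays.

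The fast minus slow change was also tested against that of C6SPGFP, with which it shares no array. The difference passed in 255 of 6686 probe sets (3.81%), 74 with a higher and 181 with a lower change in C6. Of the 445 calls in C6, 199 (44.7%) passed it, 59 of the higher and 140 of the lower ones. The count of 255 was 139 and 125 without C6SPGFP slow replicate 1 and 2, and 131 and 122 without C6SPGFP fast replicate 1 and 2. Among the 12 largest changes in each direction, 22 of 24 passed. Both the 445 calls and these 24 genes were picked by their C6 change, which is part of the difference. High shares among them were thus favoured in advance. Ccl2 had the widest difference, -6.79 ± 0.24 (SE), with a C6SPGFP change of 1.85. Srpx and Lgals3 did not pass, with C6 changes of 4.25 and 3.39 beside C6SPGFP changes of 3.28 and 3.12 (limma adjusted p of the difference 0.155 and 0.842).

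Single members of the classes differed between the 2 sets as well. Fst, at -1.75 in C6 on its brightest probe set, was at 2.36 in C6SPGFP, and the difference passed with a limma adjusted p of 5.55e-05. Basp1 and Cpe, at 1.32 and 2.01 in C6, were at -1.67 and -1.59 in C6SPGFP, and Mmp16, at -2.57, was at 1.37. These 4 genes had changes of opposite sign, and the difference passed in each. Penk, Id3, Maf and Idh2 had C6 changes of 1.13, 0.86, 1.87 and 0.80 beside 1.52, 0.71, 1.66 and 0.63 in C6SPGFP, with adjusted p-values of the difference from 0.443 to 0.843, which do not show that the changes were equal.

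**Figure D5:**
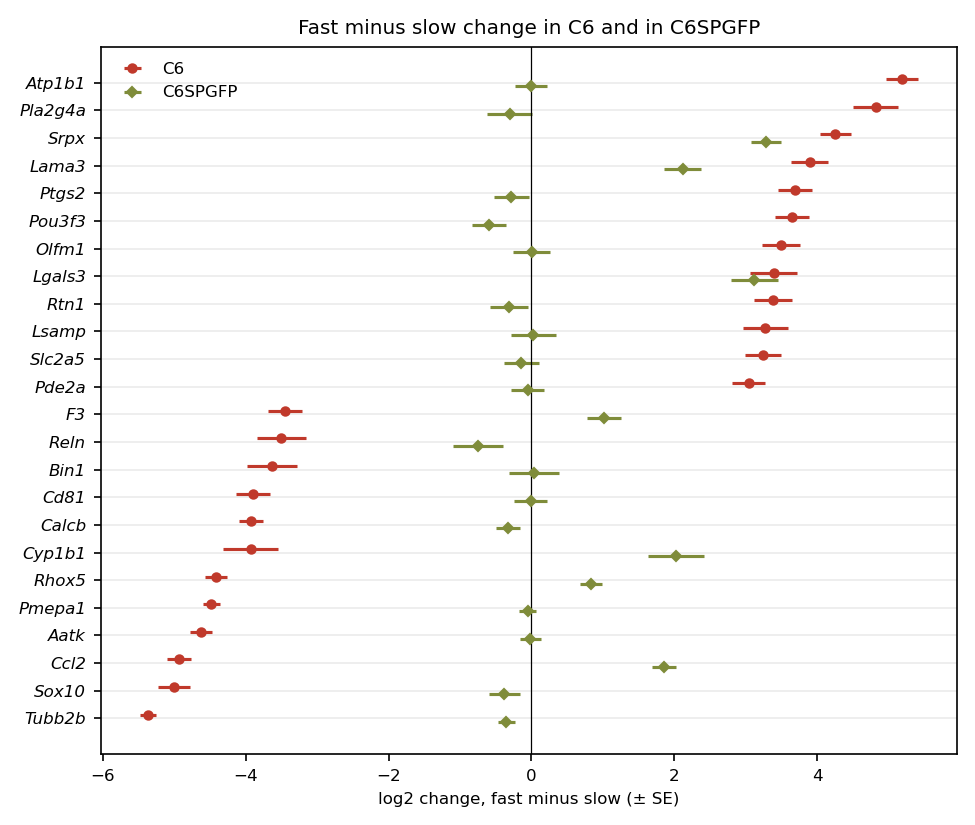
Fast minus slow log2 change (± SE) of the 12 largest increases and 12 largest decreases of C6, in C6 (red circles) and in C6SPGFP (green diamonds), from 2 arrays a group. Srpx, Lama3 and Lgals3 lie to the right in both, and Ccl2 and Cyp1b1 lie on opposite sides of 0.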

How the data were processed

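Total RNA of 8 cell samples was measured on 1-colour Affymetrix rat arrays, 2 arrays for each of C6 fast, C6 slow, C6SPGFP fast and C6SPGFP slow cells, grouped by their titles. The deposited table holds linear intensity values, 1 per probe set and array, which the authors had made before deposit; no label or header names the software, and the values show that 7 arrays share a scale and 1 does not. Arrays carry no read depth, so the number of arrays limits the precision.

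The 8740 non-control probe sets were quantile normalised over the 8 arrays, those with a mean signal under 8 (2054) were set aside, and log2(signal + 8) was fitted with limma 3.58.1 (lmFit, then eBayes with trend) in R 4.3.3. Means of the 4 groups were fitted together, and p-values were adjusted over 6686 probe sets by the Benjamini-Hochberg method at 0.05. Symbols came from the platform annotation, updated through Entrez identifiers for 6985 of 7006 probe sets with 1 symbol; 308 had several and 1426 none, and none of those is named. Classes count each gene once, by the probe set of highest mean signal.

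Named are the 25 largest increases and decreases among called probe sets whose C6 fast and C6 slow arrays do not overlap, with 1 probe set per gene, up to 6 called members per direction of each of 33 classes, a set of glial and reference genes, and the 2 brightest members of classes without a call. Some uncalled markers and further probe sets were named after their values were seen. Members and lists were chosen with earlier results of these data known. Alternatives were other scalings, pseudocounts, filters, fits and each array left out. The code was tested on simulated data. Promoters are those of RefSeq (GRCr8), and figures were drawn with matplotlib 3.10.9.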

Additional observations from a re-analysis of the deposited data

Results flagged for a closer look

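The fast minus slow change of C6 differed from that of C6SPGFP, by limma's test of the difference itself, in 22 of the 24 leading genes. These 24 were picked for the size of their C6 change, which is part of the difference, so a high count was favoured in advance. On the deposited scale 13 of the 22 no longer passed, among them Pla2g4a (adjusted p = 0.221 by limma), Ptgs2 (0.302), Pou3f3 (0.703), Calcb (0.214) and Cd81 (0.132). Differences are log2 changes of C6 minus those of C6SPGFP. Among genes higher in C6 fast cells they were 5.19 for Atp1b1, 5.12 for Pla2g4a, 4.23 for Pou3f3, 3.97 for Ptgs2, 3.70 for Rtn1, 3.49 for Olfm1, 3.38 for Slc2a5, 3.25 for Lsamp, 3.09 for Pde2a and 1.78 for Lama3. Among genes lower in C6 fast cells they were -6.79 for Ccl2, -5.96 for Cyp1b1, -5.25 for Rhox5, -5.01 for Tubb2b, -4.62 for Sox10, -4.61 for Aatk, -4.47 for F3, -4.42 for Pmepa1, -3.88 for Cd81, -3.66 for Bin1, -3.60 for Calcb and -2.75 for Reln.

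Lama3 and Reln had the smallest of these differences, and both depended on single arrays. The Lama3 difference was also lost with a pseudocount of 2 (limma adjusted p = 0.461) and with no filter on low signals (0.0726). Without C6 slow replicate 1, 1 of the 4 C6 arrays, the adjusted p of the difference (limma) was 0.0995 for Lama3 and 0.0611 for Reln. Without C6SPGFP slow replicate 1 it was 0.126 and 0.0775, and without C6SPGFP fast replicate 2 0.105 and 0.0783. Lama3 also lost it without C6 slow replicate 2 (0.0784) and C6 fast replicate 2 (0.113).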

How the results depend on the processing

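The count of 445 calls in C6 lay between 396 and 452 under other scalings between arrays, pseudocounts, filters and moderation. On the deposited scale, where C6SPGFP fast replicate 1 keeps a trimmed mean of 499.1, it was 20 (9 higher, 11 lower), and the difference from C6SPGFP had 24 calls (1 higher, 23 lower). From the 4 C6 arrays alone it was 250 (98 higher, 152 lower), and 258 (85 higher, 173 lower) on the deposited scale. Leaving out 1 array at a time gave 280 to 446 calls, 96 to 204 higher and 170 to 242 lower; for the difference it gave 122 to 268, 30 to 93 higher and 91 to 175 lower. Leaving out C6SPGFP arrays was added after the data were seen. With the replicate number as a block 425 were called; deviations of same-numbered samples correlated at 0.266 between C6 fast and slow, at 0.104 between C6SPGFP fast and slow and at -0.127 to 0.028 across the sets. No label says what a number marks, so whether the numbers pair the samples is not known, and they were not treated as pairs. With the probe set of highest mean signal, Gas6 was at 0.0358 and not called; the cause was not tested. With 2 arrays a group, and detection calls not used here, small changes and levels near the floor of the arrays were not resolved.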

Other observations

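Outside the classes and the leading genes, 142 further genes were called, 57 higher and 85 lower in C6 fast cells, of which 10 and 38 held. The genes here were chosen after their values were seen. The enzyme that starts tetrahydrobiopterin synthesis, Gch1, had signals of 259.3 and 201.8 in C6 fast, against 63.0 and 67.8 in C6 slow cells, and its brightest probe set rose too, by 1.23. The 2 further probe sets of Gch1 were at -0.43 and 0.58 and not called. Gchfr, its feedback regulator, had 147 and 157.4 in C6 fast, against 538.4 and 568.2 in C6 slow cells. The guanine deaminase Gda had 319.1 and 392.1 in C6 fast, against 86.5 and 97.4 in C6 slow cells, while its 2 other probe sets were not called (0.64 and 0.46). Adrb1, an adrenergic receptor, had 3.51 and 5.26 in C6 fast, against 49 and 60.7 in C6 slow cells.

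In the order of protein-coding genes along GRCr8, 822 adjacent pairs were both tested and 11 were both called, 9 of them in the same direction, while 7.99% of all tested genes were called on at least 1 probe set. Of the 9 pairs, 2 share the gene Polr2f. The 7.99% is a share of genes and not of pairs, and no test of the pair count was run. Besides Pla2g4a and Ptgs2, the 9 pairs included Eln and Limk1 (-1.95 and -1.74) and Polr2f and Sox10 (-0.70 and -5.00). The calls of Eln and Polr2f did not hold, and the brighter probe set of Limk1 was at -0.23 and not called.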
